A study of Mus musculus with 4 samples.

Results

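Control KLS cells were compared with control stromal cells of mouse bone marrow, to describe which genes, ligands and receptors separate blood progenitors from the stroma around them. The comparison rests on 3638 cells, 3193 in the KLS control library and 445 in the MSC control library, out of 12355 barcodes in the 4 libraries of the series. Cells were taken with at least 500 genes detected and at most 10% of their UMIs (unique molecular identifiers, 1 per captured RNA molecule) from mitochondrial genes. KLS barcodes that also occur in a stromal library were left out, as were stromal cells with 10% or more hemoglobin UMIs. There is 1 library in each group, so no difference below has a replicate check or a test, and every interval covers counting error only.

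The series crosses 2 sorted bone marrow populations with 2 genotypes and profiled each by droplet single-cell RNA sequencing of transcript 3′ ends. Both control libraries carry the genotype Vav1-Cre/+STAT5ab+/+, and the other 2 libraries come from Vav1-Cre/+ mice with floxed STAT5ab (called STAT5 KO here). The Cre transgene, active in blood cells and so not aimed at stroma, is therefore present in every library, and no group lacks it. KLS cells, named for c-Kit, absent lineage markers and Sca-1, were sorted from lineage-depleted femur and tibia marrow of 4 mice aged 8 to 12 weeks. The stromal cells, called MSC in the labels, were sorted from collagenase-digested bone of mice aged 6 to 8 weeks for Sca-1 and CD140a, after gating out CD45, CD71 and all but low Ter119. Tissue preparation, age and sorted population differ together between the libraries and cannot be told apart.

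Blood stem and progenitor cells depend on signals from the marrow around them. Stromal cells of the CXCL12-abundant reticular type make CXCL12, a chemokine that holds progenitors in the marrow through its receptor CXCR4. They also make stem cell factor (Kitl), which keeps progenitors alive through the receptor tyrosine kinase KIT. Adhesion molecules such as VCAM1 and fibronectin tether progenitors to stroma through integrins, and stromal cells build the collagens, proteoglycans and mineral-binding proteins of bone.

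The kept KLS control cells held 54257688 UMIs, with a median of 15455 UMIs and 4384 genes per cell, and the kept MSC control cells held 1638803 UMIs, with a median of 3543 UMIs and 1509 genes. Levels are given as CPM, the UMIs of a gene summed over all kept cells scaled to 1000000 UMIs of the library. A single UMI is worth 0.0184 CPM in KLS control and 0.610 CPM in MSC control, so absence is bounded far more tightly in the KLS cells. The control libraries shared 227 barcodes, of which 196 had more UMIs in the stromal library. The 150 KLS barcodes that passed the cell filters and were left out as shared had a median of 902 UMIs and carried Dcn at 10459 CPM and Cxcl12 at 5579 CPM. In the kept KLS cells these genes stood at 0.0553 and 0.184 CPM. Of the 445 kept stromal cells, 202 share a barcode with another library, 15 of them with more UMIs there. The study states 605 CD45-negative cells among 10008 sorted KLS cells, and the deposited KLS libraries of both genotypes hold 11258 barcodes, of which 10351 were kept.

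Markers of both lineages were counted in each cell. Each of the 3193 KLS control cells had more UMIs from 20 pan-hematopoietic genes (such as Coro1a, Laptm5, Rac2 and Lcp1) than from 20 pan-stromal genes (such as Col1a1, Dcn, Lum and Sparc). In MSC control 429 of 445 cells had more stromal than blood UMIs and 1 had equal numbers. The other 15, or 3.37% (exact Clopper-Pearson 95% interval 1.90 to 5.50), had more blood UMIs. These counts are in part set by the cell filter and the gates. The 150 KLS barcodes left out as shared carried the stromal genes at 56307 CPM and the blood genes at 269 CPM. The 2 lists also include Ptprc and Pdgfra, whose proteins the stromal gate used. The median KLS cell gave 0.415% of its UMIs to the blood genes and 0.0382% to the stromal genes, while the median MSC cell gave 0% and 4.57%. At full depth, UMIs of 3 or more of the stromal genes were nevertheless found in 618 of the 3193 KLS cells. UMIs of 3 or more blood genes were found in 12 of the MSC cells. The KLS cells were sequenced deeper, with a median of 15455 UMIs against 3543. After thinning each cell to 1000 UMIs, 70 of 3190 KLS cells, or 2.19%, had UMIs of 2 or more stromal genes. Of 433 thinned MSC cells, 12 had UMIs of 2 or more blood genes. Whether the 618 KLS cells are mixed was not tested. Without the cells with 3 or more markers of the other lineage at full depth, the median log2 ratio of the blood genes was 3.84. It was 3.0998 with them. The sort genes followed the gates in part. Ptprc, which encodes CD45, stood at 153 CPM in KLS control and 4.27 CPM in MSC control. Pdgfra, which encodes CD140a, was at 0 UMIs in KLS control and 311 CPM in MSC control. Ly6a, which encodes the Sca-1 that both gates required, stood at 65.9 CPM in KLS control and 650 CPM in MSC control.

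**Figure D1:**
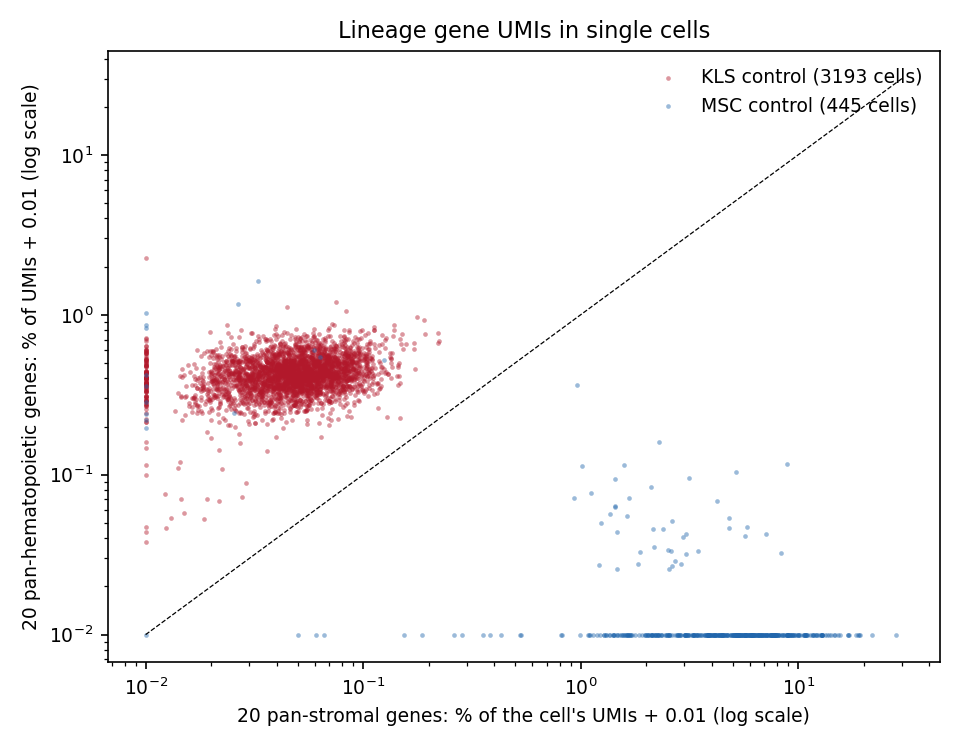
Each point is 1 kept control cell, placed by the share of its UMIs (%, plus 0.01, log axes) from 20 pan-stromal genes and 20 pan-hematopoietic genes; the dashed line marks equal shares. All 3193 KLS cells lie above the line, and 429 of 445 MSC cells lie below it. The KLS barcodes left out as shared are not drawn, and the lists include Ptprc and Pdgfra, used by the stromal gate.

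A gene was called higher in one population when (CPM + 10) in that library was at least 4 times (CPM + 10) in the other, that is, when the log2 ratio of KLS to MSC was at least 2 or at most -2. Of 13933 genes with 20 or more UMIs in the control libraries summed, 492 (3.53%) were called higher in KLS control and 1051 (7.54%) higher in MSC control. The median log2 ratio over all these genes was 0.10. Counts of called members in the lists below are to be read against the shares of all genes called, 3.53% and 7.54%. The calls depend on which UMIs make up the total: ribosomal protein genes took 27.5% of KLS control UMIs and 8.17% of MSC control UMIs. With totals that leave out ribosomal protein, mitochondrial and hemoglobin genes, 848 genes were called higher in KLS and 1043 higher in MSC, and the KLS share of all calls went from 31.9% to 44.8%. That scaling moved the median of all genes to 0.31.

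The stromal side of the separation was the steeper. Among called genes, 37 were at least 16-fold higher in KLS and 275 at least 16-fold higher in MSC on the scale with 10 CPM added, and 65 were past 64-fold in MSC against 0 in KLS. The 1051 genes higher in MSC made up 40.5% of MSC UMIs and 2.18% of KLS UMIs. The 492 genes higher in KLS made up 17.2% of KLS UMIs and 2.68% of MSC UMIs. Many genes did not separate on that scale. Of 9742 genes with a mean of at least 10 CPM over both libraries, 59.96% lay within 2-fold with 10 CPM added. The added 10 CPM shrinks the ratios of weak genes, so fewer would lie within 2-fold by plain CPM.

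**Figure D2:**
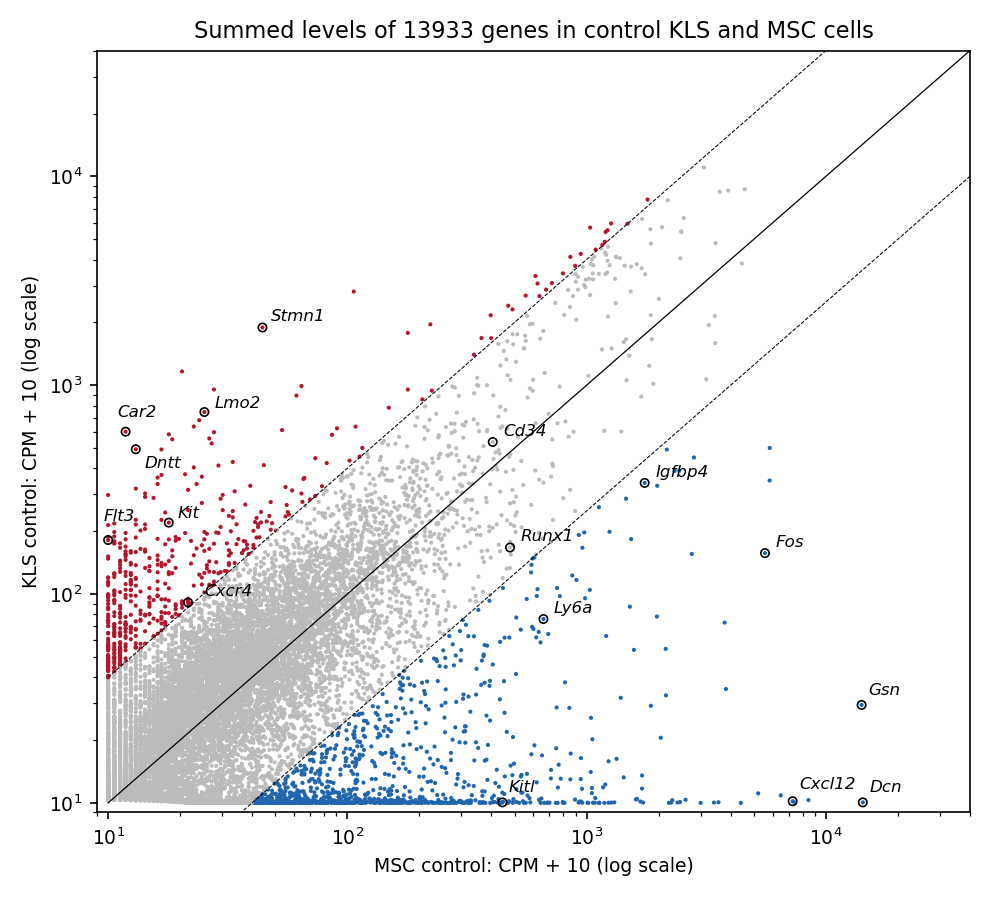
Each point is 1 of 13933 genes, placed by its summed level in MSC control and in KLS control (CPM plus 10, log axes); red and blue mark genes at least 4-fold apart (dashed lines), and the solid line marks equal levels. Stmn1, Lmo2 and Dntt lie far above the line, Dcn, Gsn and Cxcl12 far to its right, and Cd34 near it.

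The 12 genes with the largest ratios towards KLS included several known from dividing cells. Hist1h2ap, a histone gene that belongs to a family of near-identical copies and whose count is therefore uncertain, stood at 1154 CPM in KLS control and 10.4 CPM in MSC control. Stmn1, which encodes the microtubule regulator stathmin, stood at 1881 and 34.2 CPM, and Top2a, the topoisomerase of dividing cells, at 541 and 8.54 CPM. Cdk6, a kinase that drives entry into the cell cycle, stood at 670 and 14.0 CPM. These 4 genes thus had levels in KLS cells from 47.7-fold to 111-fold those in stroma.

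The other 8 of these 12 genes have varied roles. Lmo2, a scaffold of the stem cell transcription factor complex, was at 734 CPM in KLS control and 15.3 CPM in MSC control, a 48.1-fold ratio (95% interval 32.6 to 74.4). Dntt, the terminal transferase of lymphoid-primed progenitors, was at 484 and 3.05 CPM, a 159-fold ratio (67.9 to 488). Adgrg1, an adhesion receptor of stem cells, was at 572 and 7.93 CPM. Adgrl4, a related receptor, was at 288 CPM in KLS control with 0 UMIs in MSC control, which makes it at least 157-fold higher against a floor of 3 UMIs. Car2, a carbonic anhydrase of the erythroid line, was at 589 CPM against 3 UMIs in MSC control, a ratio of 322 with an interval of 110 to 1561. The last of the 12 were Plac8, Ptpn18 and Ctla2a, at 945, 483 and 625 CPM in KLS control and 17.7, 6.71 and 12.8 CPM in MSC control.

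All 20 listed mitosis genes were called higher in KLS control, against 3.53% of all genes, and their median log2 ratio was 3.66. Mki67, a marker of cycling cells, stood at 310 CPM in KLS control and 3.05 CPM in MSC control. Cdk1, the kinase that starts mitosis, was at 188 CPM against a single UMI in MSC control, and Aurkb, Bub1, Bub1b and Birc5 were at 0 UMIs there. When every cell was thinned to 1000 UMIs, 37.0% of 3190 KLS cells had UMIs of 2 or more mitosis genes and 0.231% of 433 MSC cells did. Of 20 DNA replication genes, 14 were called higher in KLS control, with a median of 2.62. Mcm3, part of the replicative helicase, had the largest ratio, with 192 against 3.66 CPM. Pcna, the sliding clamp of DNA polymerases, was not called, at 274 and 128 CPM, and Slbp, which binds histone mRNA, was at 188 and 212 CPM. UMIs of 2 or more replication genes were found in 53.1% of thinned KLS cells and 7.85% of thinned MSC cells.

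Stem and progenitor markers were split. Of 20, 9 were called higher in KLS control (3.53% of all genes were) and 0 higher in MSC control (7.54% of all genes). Their median was 1.62. Hlf and Meis1, transcription factors of stem cells, stood at 263 and 242 CPM in KLS control and at 14.6 and 20.1 CPM in MSC control. Ifitm1 stood at 517 and 17.1 CPM. Markers used to define stem cells by flow cytometry did not all separate the populations. Cd34 was at 525 CPM in KLS control and 395 CPM in MSC control, a 1.33-fold ratio (1.23 to 1.44). Procr, which encodes the endothelial protein C receptor, was at 21.3 and 106 CPM, so it was 4.98-fold higher in stroma (4.22 to 5.84) without reaching the call, which needs 4-fold after 10 CPM is added to both.

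Genes of committed blood lineages were mixed within the KLS cells. Among 15 myeloid genes Mpo, Prtn3 and Ctsg, granule enzymes of early granulocytes, were called higher in KLS control, at 546, 405 and 134 CPM against 16.5, 34.8 and 7.93 CPM. S100a8 and S100a9, calcium-binding proteins of mature neutrophils, went the other way, with 609 and 499 CPM in MSC control, but 1 stromal cell held 97.9% of the S100a8 UMIs and 99.6% of the S100a9 UMIs there. Against 3.53% of all genes, 5 of 15 lymphoid-primed genes were called higher in KLS control. These included Dntt, Il12a, Satb1 and Cd27, of which Satb1, a chromatin organizer of lymphoid fate, stood at 173 and 15.3 CPM. Ebf1, known as a B cell factor, was on the stromal side, at 1.68 CPM in KLS control and 948 CPM in MSC control, and 46.7% of thinned MSC cells had an Ebf1 UMI against 0.0627% of thinned KLS cells (70.8% and 0.783% before thinning). No megakaryocyte gene of 11 was called in either direction.

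The 12 largest ratios towards stroma included matrix genes, the chemokine Cxcl12, Igfbp5, Gsn and the secreted peroxidase Gpx3. Dcn, which encodes the small proteoglycan decorin, stood at 14278 CPM in MSC control against 3 UMIs in the kept KLS control cells, a ratio of 258221 with an interval of 88348 to 1252230. The 150 KLS barcodes left out as shared held 1828 Dcn and 315 Col1a1 UMIs, so the size of such ratios depends on leaving them out. Sparc, a collagen-binding protein of bone, stood at 8460 CPM against 0.313 CPM. Col1a1 and Col1a2, the chains of type I collagen, stood at 7341 and 6476 CPM against 0.129 and 0.866 CPM. Col3a1 was at 4406 CPM with 0 UMIs in KLS control, at least 79691-fold higher against the floor of 3 UMIs. Fmod, the proteoglycan fibromodulin, was at 2988 CPM with 0 UMIs in KLS control, and Gsn, the actin-severing protein gelsolin, was at 14113 against 19.4 CPM. Of the genes in this paragraph, all but Gsn stood under 1 CPM in KLS control.

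The listed matrix genes lay on the stromal side with few exceptions. All 16 listed collagens and all 23 other matrix proteins and proteoglycans were called higher in MSC control, against 7.54% of all genes, with median log2 ratios of -5.28 and -5.44. Col18a1, the basement membrane collagen that yields endostatin, had the smallest collagen ratio, at 50.04 CPM in MSC control and 1.07 CPM in KLS control. Of 16 matrix proteases and inhibitors 15 were called, among them Timp2, an inhibitor of matrix metalloproteinases, at 1380 and 21.9 CPM, while Mmp9 was not. Col22a1, a collagen on the osteoblast list, was not called either, with 29.3 CPM in MSC control and 0 UMIs in KLS control. Of 13 complement genes 10 were called higher in MSC control. C3, the central complement component, stood at 885 CPM in MSC control and 0.369 CPM in KLS control, and Serping1, the inhibitor of the first component, at 1714 CPM and 2 UMIs. Of 20 binding proteins of IGF and antagonists of BMP and WNT, 15 were called. Igfbp5 stood at 3551 CPM in MSC control and 0.0737 CPM in KLS control. Igfbp4 was an exception in degree, at 1740 and 331 CPM, a 5.26-fold ratio.

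The stromal sort held more than 1 kind of marker. All 12 markers of CXCL12-abundant reticular cells were called higher in MSC control, as were all 12 chondrocyte markers, 12 of 14 fibroblast markers and 6 of 10 osteoblast markers. The share over all genes was 7.54%. After thinning, 49.0% of 433 MSC cells had UMIs of 2 or more reticular markers, 62.8% of fibroblast markers, 26.1% of osteoblast markers and 18.5% of chondrocyte markers, shares that overlap because a cell can hold several. Among 3190 thinned KLS cells the reticular, osteoblast and chondrocyte shares were 0%, and the fibroblast share, whose list includes Cd34, was 5.99%. That list also holds Ly6a, which encodes the Sca-1 of both gates, and Gsn, detected in 338 of 445 MSC cells. The 62.8% is therefore no share of fibroblasts in the sort. Lepr, the leptin receptor that marks reticular cells, was at 513 CPM in MSC control with 0 UMIs in KLS control.

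These stromal genes were spread unevenly over the 445 MSC cells. Dcn was detected in 352 cells, and the 45 cells with the most Dcn UMIs held 40.0% of them. Cxcl12 was detected in 218 cells, with 62.1% of its UMIs in the top 45. Col2a1, the cartilage collagen, was detected in 48 cells, with 99.9% in the top 45. Of the 33 thinned cells with a Col2a1 UMI, 2 also had a Cxcl12 UMI, or 6.06%, compared with 37.0% of all thinned MSC cells. A summed stromal level is therefore a mean over unlike cells, and more cells of a type cannot be told apart from more RNA per cell.

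Of 24 blood factors 16 were called higher in KLS control (3.53% of all genes were) and 0 higher in MSC control (7.54% of all genes). Their median was 2.29. Myb, needed for definitive blood formation, stood at 394 and 12.8 CPM. Spi1, which encodes PU.1, was at 132 CPM against 2 UMIs, and Ikzf1, which encodes Ikaros, was at 195 and 4.27 CPM. Runx1, a master regulator of blood stem cells, ran against its list, at 157 CPM in KLS control and 469 CPM in MSC control, a 2.98-fold ratio towards stroma (2.77 to 3.21). Its UMIs were found in 52.8% of MSC cells and 85.4% of KLS cells, and in 28.4% and 14.5% after thinning. The myeloid factor Cebpa ran the same way, at 38.5 and 106 CPM. Neither reached the 4-fold call.

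Of 26 mesenchymal factors 19 were called higher in MSC control, against 7.54% of all genes, with a median of -3.05. Prrx1, a homeobox factor of limb mesenchyme, stood at 433 CPM against 2 UMIs, and Nfib stood at 437 CPM against 0.147 CPM. Ebf3, which maintains reticular cells, was at 276 CPM with 0 UMIs in KLS control. Runx2, the osteoblast factor, did not separate the populations, at 99.5 CPM in KLS control and 121 CPM in MSC control.

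**Figure D3:**
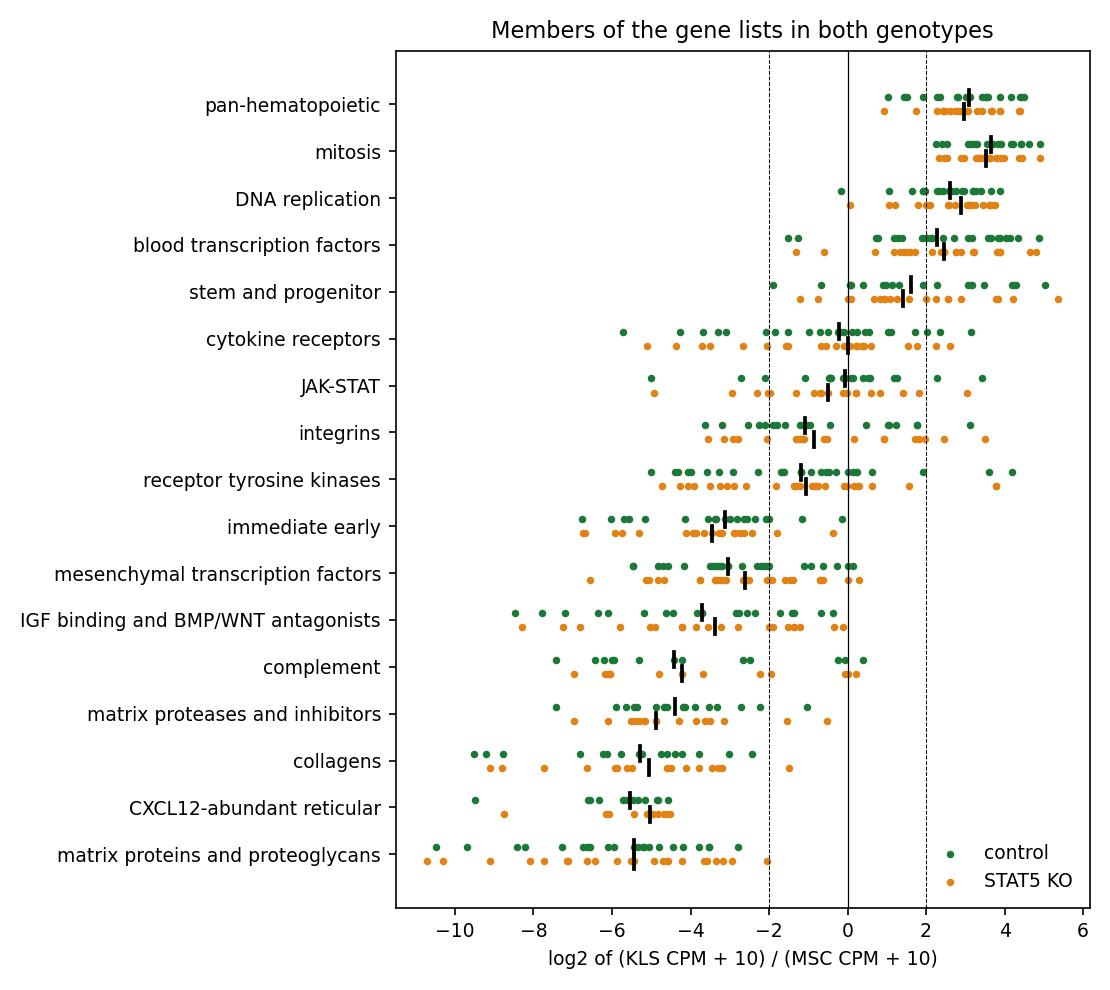
Each point is 1 gene, placed by its log2 ratio of KLS to MSC (10 CPM added to both) in the control libraries (green) and the STAT5 KO libraries (orange); black bars are list medians and dashed lines mark 4-fold. Mitosis genes lie wholly to the right in control, collagens wholly to the left, and JAK-STAT genes around 0.

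Signals between the populations were read from 100 ligand and receptor pairs with 92 ligands and 85 receptors. Ligands leaned to stroma, with 50 called higher in MSC control (7.54% of all genes were) and 4 higher in KLS control (3.53% of all genes), at a median log2 ratio of -2.34. Receptors had a median of -0.13, with 19 called higher in MSC control and 8 higher in KLS control, to be read against the same shares. Both partners were called, with the ligand in stroma and the receptor in KLS, in 4 pairs: Kitl with Kit, Cxcl12 with Cxcr4, Vcam1 with Itga4 and Fn1 with Itga4. The reverse arrangement was found in 0 pairs, and 15 pairs had both partners called in stroma. Kit and Pdgfra, which the gates selected for, are counted here although their directions are no result. The pairs were listed with earlier results of these data known, so these counts are no test.

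**Figure D4:**
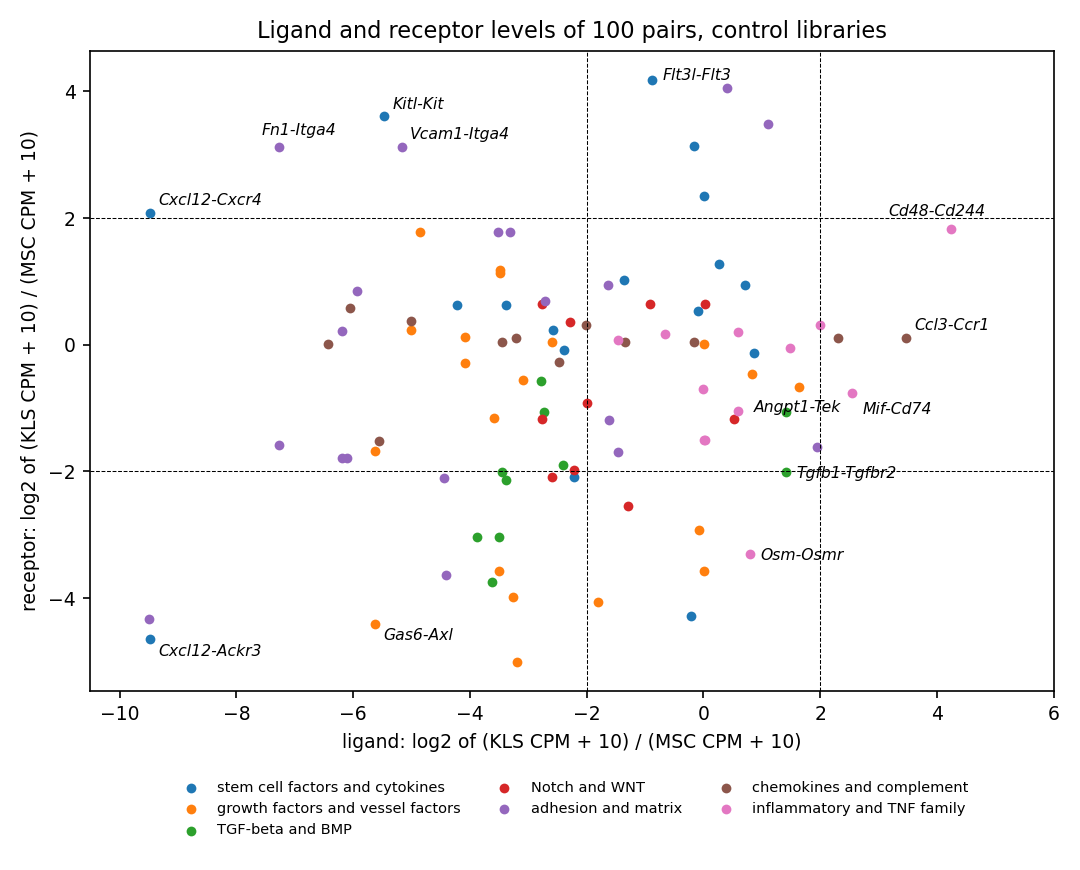
Each point is 1 of 100 pairs, placed by the log2 ratio of KLS to MSC (10 CPM added to both) of its ligand and of its receptor, colored by family; dashed lines mark 4-fold. The upper left corner holds the 4 pairs with the ligand in stroma and the receptor in KLS, and the lower right corner is empty.

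Kitl and Kit were called in opposite populations. Kitl is annotated at chr10:100015630-100100416 on the plus strand and Kit at chr5:75574916-75656722 on the plus strand (GENCODE M21, GRCm38). Kitl stood at 435 CPM in MSC control against 3 UMIs in KLS control, a ratio of 7869 with an interval of 2682 to 38246. The KLS barcodes left out as shared held 81 Kitl UMIs. With them kept, the Kitl log2 ratio with 10 CPM added went from -5.47 to -5.27. Kit, which the KLS gate selected for and whose direction is therefore no result, stood at 210 CPM in KLS control and 7.93 CPM in MSC control. After thinning, 20.3% of MSC cells and 0 of 3190 KLS cells had a Kitl UMI, where 3 counts of that total allow a share of KLS cells with a Kitl UMI at this depth of up to 0.0940%. The Kitl shares were 27.9% and 0.0940% before thinning. Most Kitl-bearing stromal cells also carried Cxcl12: of 88 thinned MSC cells with a Kitl UMI, 75 had a Cxcl12 UMI, or 85.2%.

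Cxcl12 stood at 7264 CPM in MSC control and 0.184 CPM in KLS control, a 39412-fold ratio (21423 to 82208). The size of that ratio depends on the KLS barcodes left out as shared, which held 975 Cxcl12 UMIs. The kept KLS cells held 10. With the shared barcodes kept, the Cxcl12 log2 ratio with 10 CPM added went from -9.48 to -8.02. Cxcr4, the receptor of CXCL12, stood at 81.2 CPM in KLS control and 11.6 CPM in MSC control, a 7.00-fold ratio (4.48 to 11.6) from 19 stromal UMIs. The Cxcr4 call was the least secure of the 4 pairs. Its log2 ratio of 2.08 became 1.33 when barcodes found in any other library were left out of both sorts, and 1.499 with the mean CPM of single cells. It became 1.99 with the KLS sum thinned to the MSC total and 1.09 with 50 CPM added in place of 10, so the call was lost under these 4 alternatives. It became 2.81 when cells with 3 or more markers of the other lineage were left out. Ackr3, the scavenging receptor that also binds CXCL12, was on the stromal side, at 240 CPM in MSC control with 0 UMIs in KLS control.

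The sequences upstream of Kit, Cxcl12 and Cxcr4 are shown because the partners of these 2 pairs were called in opposite populations. The limits given above for Kit and Cxcr4 hold here too. They are from RefSeq on GRCm38.p6, read 5′ to 3′ on the gene's strand, and stop before the gene's start in both RefSeq and GENCODE M21. The window of Kitl, with 59 such bases, is not shown. Kit lies on the plus strand at chr5:75574737-75574915, Cxcl12 on the plus strand at chr6:117168285-117168534 and Cxcr4 on the minus strand at chr1:128592300-128592549.
Kit: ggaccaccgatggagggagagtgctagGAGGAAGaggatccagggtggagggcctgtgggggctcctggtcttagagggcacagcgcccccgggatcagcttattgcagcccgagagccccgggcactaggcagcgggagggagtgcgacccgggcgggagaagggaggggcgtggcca
Cxcl12: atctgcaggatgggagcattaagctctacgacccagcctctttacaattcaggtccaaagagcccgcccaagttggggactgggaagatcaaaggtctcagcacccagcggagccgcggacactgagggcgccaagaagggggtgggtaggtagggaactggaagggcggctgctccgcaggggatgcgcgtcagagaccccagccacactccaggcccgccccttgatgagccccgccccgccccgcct
Cxcr4: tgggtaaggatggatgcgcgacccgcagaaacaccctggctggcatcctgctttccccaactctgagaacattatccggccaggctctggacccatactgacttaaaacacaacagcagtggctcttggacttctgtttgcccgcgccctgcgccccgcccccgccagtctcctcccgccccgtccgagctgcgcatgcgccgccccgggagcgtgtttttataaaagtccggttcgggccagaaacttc
Capitals mark a match to 1 of 7 short motifs searched on both strands: TGTGGT for RUNX, CGGAAG for ETS, GAGGAAG for PU.1-like ETS, AGATAA for the GATA family, GGAATG for TEAD, TGANTCA for AP-1 and CAGCTG for the E-box. Kit held 1 match, to the PU.1-like motif at base 28 of the sequence shown, and the other 2 windows held none. That motif occurred in 10.4% of the first 250 bases of 27025 RefSeq promoters, and the other motifs in 6.87% to 14.2%. The Kit sequence shown has 179 bases, so these shares are no matched background for it. A comparison of motif shares between called genes was void, because 75.5% of the genes tested had a promoter in the table.

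Of 19 adhesion and matrix pairs 2 had the ligand called in stroma and the receptor in KLS, and both rest on Itga4. Vcam1, the vascular cell adhesion molecule, stood at 420 CPM in MSC control and 1.95 CPM in KLS control. Fn1, which encodes fibronectin, stood at 1598 and 0.387 CPM. With the KLS barcodes shared with stromal libraries kept, the Fn1 log2 ratio went from -7.27 to -6.37. Itga4, the integrin subunit that binds both, stood at 119 CPM in KLS control and 4.88 CPM in MSC control, a 24.4-fold ratio (12.4 to 56.5). It was the single integrin of 20 called higher in KLS control, against 3.53% of all genes. Itga1, Itga10, Itga11, Itgav and Itgb5 were called higher in MSC control, against 7.54% of all genes. Thinned KLS cells had an Itga4 UMI in 11.3% of cases and thinned MSC cells in 0.231% (73.4% and 1.35% before thinning). Icam1, which binds the leukocyte integrin of Itgal, was at 311 CPM in MSC control, but Itgal at 32.5 and 2.44 CPM missed the call.

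In 5 pairs the receptor was called higher in KLS control and the ligand in neither population. Flt3, the receptor of multipotent and lymphoid progenitors, was at 171 CPM with 0 UMIs in MSC control, at least 93.7-fold higher, and its ligand Flt3l was at 8.63 and 24.4 CPM. Csf3r, the receptor of granulocyte colony-stimulating factor, was at 43.9 CPM against a single UMI, and Csf3 had 1 UMI in KLS control and 0 in MSC control. Selplg, listed as the partner of a selectin and known to guide rolling on vessel walls, was at 150 CPM in KLS control and 4.27 CPM in MSC control.

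Stroma also carried ligands whose listed receptor was not called in either population, in 37 pairs. Csf1 and Il34, the ligands of the macrophage receptor CSF1R, stood at 250 and 94.6 CPM in MSC control and at 3.93 and 0.0184 CPM in KLS control, while Csf1r was at 6.45 CPM in KLS control and 0.610 CPM in MSC control. Igf1, a growth factor, stood at 356 and 1.36 CPM, with Igf1r at similar levels in MSC and KLS, 103 and 123 CPM. The chemokines Ccl2 and Cxcl1 stood at 318 and 655 CPM in MSC control and at 0.240 CPM and 0 UMIs in KLS control. Spp1, which encodes osteopontin, stood at 935 and 3.004 CPM, with its receptor Cd44 at 111 and 131 CPM.

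Pairs with both partners in stroma included 5 of the 10 listed TGF-beta and BMP pairs. In the STAT5 KO libraries the receptor call was lost for Tgfb3 with Tgfbr2 and for Bmp6 with Bmpr2. Tgfbr2 was close to the cut in control, at a log2 ratio of -2.01. Bmp4 stood at 142 CPM in MSC control and 0.350 CPM in KLS control, and its receptor Bmpr1a at 73.2 and 0.147 CPM. Tgfb1 leaned to blood, at 308 CPM in KLS control and 109 CPM in MSC control, below the call, while Tgfbr2 was at 31.0 and 155 CPM. Gas6, a ligand of TAM receptor kinases, and Axl, one of those kinases, stood at 701 and 280 CPM in MSC control and at 4.39 and 3.74 CPM in KLS control. Fgf7 with Fgfr2 had the same layout, as did Pdgfa with Pdgfra, whose receptor the stromal gate selected for and whose direction is therefore no result.

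Ligands made by progenitors were few in this list. Ccl3, an inflammatory chemokine, was at 100 CPM in KLS control with 0 UMIs in MSC control, and Ccl9 was at 66.3 and 5.49 CPM. Mif, a cytokine also found inside cells, was at 624 and 98.2 CPM, and Cd48, a ligand of the SLAM family, at 178 CPM with 0 UMIs in MSC control. None of their listed receptors was called in stroma. Angpt1, the angiopoietin that signals through TIE2, was at 208 CPM in KLS control and 59.8 CPM in MSC control, short of the call, and Tek, which encodes TIE2, was at 6.32 and 15.9 CPM. Osm, a cytokine of the IL-6 family, was at 7.37 CPM with 0 UMIs in MSC control, and its receptor Osmr was at 89.1 CPM in MSC control against 2 UMIs.

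**Figure D5:**
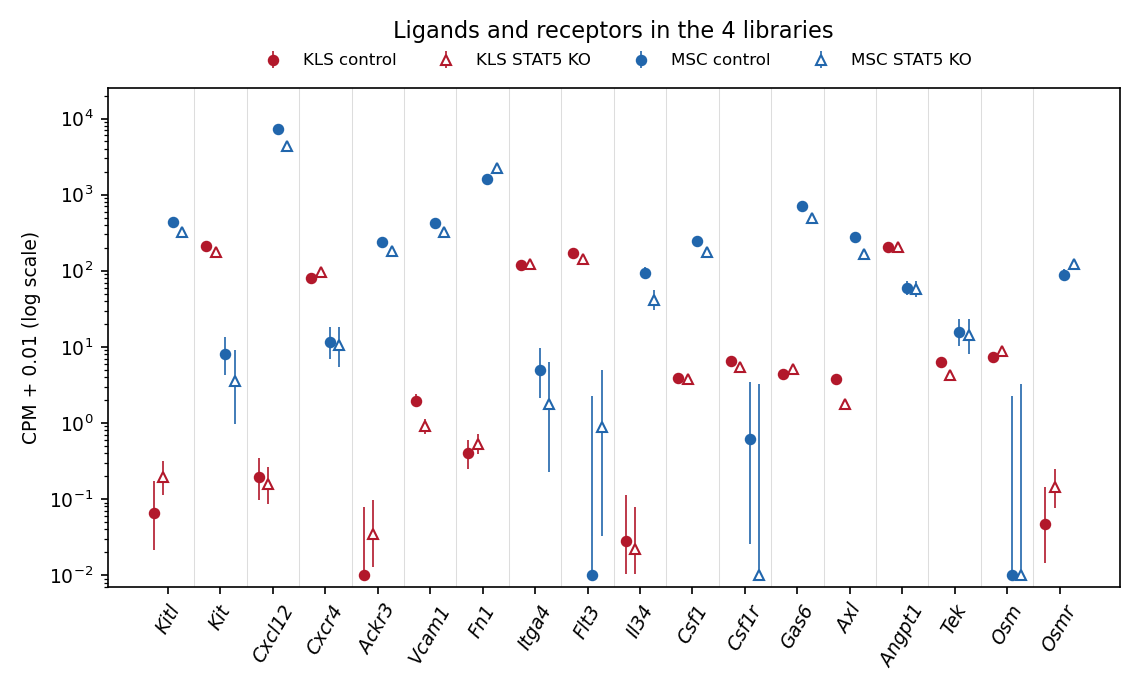
Summed levels (CPM plus 0.01, log axis) of the ligands and receptors named on the axis in the 4 libraries, with exact Poisson 95% intervals as bars; points at 0.01 are genes with 0 UMIs. Kitl, Cxcl12, Vcam1 and Fn1 are high in both MSC libraries, and Kit, Itga4 and Flt3 in both KLS libraries.

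Of 25 cytokine receptors 3 were called higher in KLS control and 6 higher in MSC control, with Lepr at the stromal end and a median of -0.21. Of 28 receptor tyrosine kinases 2 were called higher in KLS control and 9 higher in MSC control, with a median of -1.18. Both sets of counts stand beside 3.53% of all genes higher in KLS control and 7.54% higher in MSC control. Lifr, the receptor of leukemia inhibitory factor, stood at 196 CPM in MSC control and 0.645 CPM in KLS control, and Il6st, the signaling subunit it shares with the IL-6 family, at 247 and 20.2 CPM.

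Signal transducers of the JAK-STAT pathway, which cytokine receptors use, were called in both directions. Of 19 genes 2 were called higher in KLS control, against 3.53% of all genes, and 3 higher in MSC control, against 7.54%, with a median of -0.06 and 14 not called. Stat5a stood at 68.2 and 44.5 CPM and Stat5b at 60.7 and 56.1 CPM in KLS and MSC control, so the genes deleted in the other genotype were present in both. Stat4 was at 39.0 CPM with 0 UMIs in MSC control, and Ptpn6, the phosphatase SHP-1 of blood cells, at 118 CPM against 3 UMIs. Socs3, a feedback inhibitor of the pathway, was 67.2-fold higher in stroma (60.2 to 75.1), at 596 and 8.87 CPM. Socs1 and Socs2 were also called higher in stroma, at 124 and 70.2 CPM against 10.6 and 8.79 CPM.

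Immediate early genes, known to respond within minutes to handling, were high in the stromal library. Of 19, 16 were called higher in MSC control (7.54% of all genes were) and 0 higher in KLS control (3.53% of all genes). Their median was -3.12. Fos and Egr1 stood at 5562 and 3768 CPM in MSC control and at 147 and 63.0 CPM in KLS control, and Klf4 at 1421 and 3.24 CPM. The summed level of the list was 25323 CPM in MSC control and 2029 CPM in KLS control. It was 29905 and 1893 CPM in the STAT5 KO libraries, prepared by the same 2 routes. Socs3, Ccl2, Cxcl1, Il6 and Adamts1 are known to be inducible as well, and the part of tissue preparation in their levels was not tested.

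The same contrast in the STAT5 KO libraries shows how far the values vary between libraries of another genotype. There 523 of 14071 genes (3.72%) were called higher in KLS and 1009 (7.17%) higher in MSC. Of the 492 genes higher in KLS control, 410 were called there too, or 83.3% of the control calls and 78.4% of the STAT5 KO calls. Of the 1051 higher in MSC control, 885 were, or 84.2% and 87.7%. No gene was called in opposite directions. All 4 pairs with the ligand in stroma and the receptor in KLS kept that layout, and Esm1 with Itgal and Icam1 with Itgal had it there as well. Of the 15 pairs with both partners in stroma, 13 kept theirs. In the STAT5 KO pair of libraries Kitl stood at 0.183 and 320 CPM, Cxcl12 at 0.146 and 4331 CPM and Cxcr4 at 95.8 and 10.6 CPM, in KLS and MSC. Runx1 was again higher in stroma, at 169 and 436 CPM. The ribosomal protein share was again higher in KLS, at 27.2% and 9.05%. Chondrocyte markers moved most among the stromal lists, with a summed 7539 CPM in MSC control and 28459 CPM in MSC STAT5 KO, and 1 library of each cannot tell genotype from the cells captured.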

How the data were processed

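The deposited matrices hold raw UMI counts for 31053 genes, from Cell Ranger with builds GRCm38 and mm10 per the submitters' processing notes and software version 3.1.0 per the file headers; the strand rule is not given in the sources used here, so antisense and overlapping genes cannot be told apart. Coordinates are those of GENCODE M21 (GRCm38). Counts of kept cells were summed and scaled to CPM (per 1000000 UMIs). No value column lacked a sample. Intervals are 95%: exact Poisson for levels, exact conditional binomial for ratios and Clopper-Pearson for shares. A count of 0 was set to a floor of 3 UMIs per library for ratios. Shares of cells were taken after thinning each cell to 1000 UMIs, which left out 3 KLS and 12 MSC cells. No doublets were removed and no free RNA was corrected; Scrublet (scanpy 1.11.5) gave an alternative. Members, 32 gene lists and 100 pairs were chosen with earlier results of these data known. Genes named are the 12 largest ratios in each direction among genes with at least 100 UMIs and detected in at least 5% of cells of the higher library (without hemoglobin, immunoglobulin, mitochondrial and sex-linked marker genes), and list or pair members at the extremes or medians or against their list; other members were named for their role, with their values known. The sum and ratio steps were tested on simulated data for this comparison (13933 genes): 50 of 50 genes changed 8-fold were called, as were 100% of those changed 16-fold and 64-fold and 0% of those changed 2-fold. The changed genes were drawn from those with means of at least 50 CPM and 100 UMIs over both libraries. At such levels these outcomes follow from the call itself, and weaker genes were not tested. Alternatives covered cell filters, shared barcodes, scaling (edgeR 4.0.16 TMM among them), pseudocounts and UMI minimums. Python 3.11.15, numpy 2.4.6, scipy 1.17.1, pandas 2.3.3 and R 4.3.3 were used. Some members are not reported here.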

Additional observations from a re-analysis of the deposited data

Results flagged for a closer look

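Ighm, the immunoglobulin heavy chain gene, pointed in opposite directions in the 2 genotypes: its log2 ratio of KLS to MSC was -1.23 in control and 1.79 in STAT5 KO. The difference was not tested. In MSC control 1 cell held 90.25% of the Ighm UMIs. The KLS control barcodes left out as shared, which enter no comparison, carried the pan-stromal genes at 56307 CPM, against 406.9 CPM in the kept KLS control cells and 55938 CPM in MSC control.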

How the results depend on the processing

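The genes called higher in KLS numbered 848 with totals that leave out hemoglobin, mitochondrial and ribosomal protein genes, 1349 with a pseudocount of 1 CPM and 91 with 50 CPM. Those higher in MSC numbered 2057 and 360 with the last 2 settings. Pairs with the ligand in stroma and the receptor in KLS numbered 7, 12 and 1 in the same order, and the reverse layout appeared in 2 pairs (Osm with Osmr and Sema4d with Plxnb2) with a pseudocount of 1 CPM. Under the other alternatives the KLS count ran from 432 to 537, the MSC count from 872 to 1069 and the pairs from 3 to 4. Jchain changed from -4.26 to 0.61 under a cell filter of 1000 genes and 5% mitochondrial UMIs, to 0.055 without barcodes found in any other library, to 0.17 without cells with 3 or more markers of the other lineage and to 0.55 without MSC cells with over 1% immunoglobulin or S100a8 and S100a9 UMIs, an alternative chosen after seeing the data. S100a8 changed from -5.62 to 0.11 and 0.043 without those barcodes and without those cells of mixed markers, respectively. In MSC control 1 cell held 97.5% of Jchain UMIs and 1 cell 97.9% of S100a8 UMIs. No list median past 4-fold changed sign, but 6 of 16 fell under 4-fold in 7 values, 6 of them with 50 CPM and 1 (blood transcription factors, 1.99) without shared barcodes. Single genes were followed for 585 chosen genes, list and pair members among them, and not for all genes called. Of these 331 were called, and 158 of the 331 fell under 4-fold in some alternative, 151 of them with 50 CPM. Leaving out shared barcodes kept 243 MSC cells and moved the chondrocyte median from -4.86 to -2.85, and the cause was not tested. The MSC depth limits statements of absence to 1.83 CPM, and with 1 library per group the spread between animals is unknown. No paired analysis was possible because each group has 1 library and no result comes from a test.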

Other observations

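Markers of cell types that neither gate aimed at were also read. Calls stand beside 3.53% of all genes higher in KLS control and 7.54% higher in MSC control. A single call in lists this short is no result about the list. Of 10 endothelial markers 1 was called, Egfl7, a vessel factor also known in blood progenitors, at 186 CPM in KLS control and 1.83 CPM in MSC control. Of 10 pericyte and smooth muscle markers 4 were called higher in MSC control, led by Rgs5, a regulator of G protein signaling, at 318 CPM with 0 UMIs in KLS control. All 7 mast cell and basophil markers were at 0 UMIs in MSC control, and Cpa3, a mast cell protease, was at 35.3 CPM in KLS control. Of 7 adipocyte markers 3 were called higher in MSC control, among them Lpl, the lipoprotein lipase, at 1042 and 1.14 CPM. Lpl and Adipoq are also on the reticular list. Pparg, Plin1, Cidec and Cd36 were not called. None of 8 Schwann cell and muscle markers was called. Of 14 erythroid genes 2 were called higher in KLS control and 1 higher in MSC control, with Car2 at the KLS end. The called stromal gene, Hbb-bs, was one used to leave out MSC cells, so its level is no result. The list's median log2 ratio of 0.42 was -0.36 with no hemoglobin limit and -0.42 with cells of 200 genes or more. Of 10 genes of mature B, plasma and T cells 2 were called higher in MSC control, with Jchain at the stromal end, and 0 in the STAT5 KO libraries. In MSC control 1 cell held 97.5% of the Jchain UMIs, and its ratio changed direction under 4 alternatives.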
